A study of Mus musculus with 6 samples.

Results

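The sites described here are the 3947 low-ranked ATAC-seq peaks that lay inside genes and were called in Bcl11b-intact regulatory T cells alone. They were chosen from the 38258 peaks of the WT list, beside a KO list of 36182 peaks, on mouse build mm10. A peak is a member when it stands in the last 50% of the rows of the WT list, has no KO peak within 500 bp, and has its midpoint inside a protein-coding gene and more than 1 kb from both ends of every protein-coding gene of RefSeq. The presence or absence of a KO peak and the row order chose the members, so the lack of a KO peak at them is the rule and not a finding. Row order is read as peak rank, which the labels do not state.

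The KO group carried Bcl11b f/f with Foxp3-IRES-YFP-Cre and the WT group Bcl11b w/w with the same Foxp3-IRES-YFP-Cre, both on a C57BL/6 background, with 3 samples per group and 100000 cells lysed per sample. Cre and the yellow fluorescent protein are made from the Foxp3 gene, so recombination is tied to cells that express Foxp3, and CD4+YFP+ cells were sorted from spleen and draining lymph nodes of both groups. The labels give neither age, sex nor the deleted part of Bcl11b. Each group had 1 list for its 3 samples together, with no count or height per peak, so the depth per sample is unknown and no spread between replicates could be measured. All intervals below are exact 95% intervals that cover counting error alone, and none of the differences has a replicate check.

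Bcl11b encodes a zinc-finger transcription factor that commits progenitors to the T cell lineage and is kept on in mature T cells. ATAC-seq marks DNA that a transposase can reach. Reachable sites inside genes and away from promoters are often enhancers, which may act on the gene that holds them or on another one. The cell label was checked at gene ends, within 1 kb of either end. Of 8 T cell markers, 8 had a gene-end peak in the KO list and 6 in the WT list, and of 8 Treg markers 5 had one in each list. Foxp3 and Tnfrsf18 had none in either list. Of 5 B cell markers 1 had a gene-end peak in the KO list and 0 in the WT list, and of 5 myeloid markers 1 in each list. Of 4 NK cell markers 2 had one in the KO list and 1 in the WT list. Of 2 CD8 T cell markers 1 had one in each list, and of 3 erythroid markers also 1 in each list. Fewer cells with an open site and less opening per cell cannot be told apart in such bulk samples.

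Most members had no annotated start nearby, and the few that did are the ones whose letters can be shown. Of the 3826 members whose surroundings were compared with RefSeq starts, 57 (1.49%, 1.13 to 1.93%) overlapped a RefSeq start window, which runs from 250 bases before to 50 after an annotated start. For 41 of them the start belonged to the host gene itself and was thus an internal start of that gene. The 8 sequences below were picked after their values were seen, because their genes act in lymphocytes or in signalling, and each is the part of a member that falls in the 250 bases before the start. They come from RefSeq (GRCm38.p6, the coordinates of mm10), read 5′ to 3′ on the strand of the gene, and capitals mark matches, on either strand, to the motifs spelled out in the next paragraph.
Itgb7, the beta7 integrin subunit of gut-homing receptors, chr15:102231936-102232119, minus strand: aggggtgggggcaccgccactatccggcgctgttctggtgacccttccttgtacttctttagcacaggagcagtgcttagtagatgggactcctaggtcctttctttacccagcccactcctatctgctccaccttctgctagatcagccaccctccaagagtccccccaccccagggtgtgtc
Jdp2, a repressor that pairs with AP-1 factors, chr12:85599768-85599927, plus strand: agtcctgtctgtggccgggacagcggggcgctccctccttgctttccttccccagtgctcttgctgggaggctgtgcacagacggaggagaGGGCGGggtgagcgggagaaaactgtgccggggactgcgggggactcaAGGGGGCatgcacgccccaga
Limk2, a kinase of the actin regulator cofilin, chr11:3371405-3371622, minus strand: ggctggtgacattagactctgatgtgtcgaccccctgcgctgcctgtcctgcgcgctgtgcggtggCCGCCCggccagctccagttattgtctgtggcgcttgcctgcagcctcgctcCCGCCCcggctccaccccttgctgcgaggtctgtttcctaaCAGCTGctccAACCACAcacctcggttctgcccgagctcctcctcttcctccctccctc
Slc25a25, a mitochondrial carrier of ATP and phosphate, chr2:32424154-32424316, minus strand: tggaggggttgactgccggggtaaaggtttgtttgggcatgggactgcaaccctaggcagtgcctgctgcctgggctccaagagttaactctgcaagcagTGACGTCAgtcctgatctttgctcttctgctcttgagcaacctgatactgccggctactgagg
Gpr174, a receptor for lysophosphatidylserine on lymphocytes, chrX:107284242-107284345, plus strand: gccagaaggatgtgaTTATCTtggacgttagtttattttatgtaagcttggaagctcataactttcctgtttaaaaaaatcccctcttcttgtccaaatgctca
Rgs3, a regulator of G protein signalling, chr4:62619422-62619555, plus strand: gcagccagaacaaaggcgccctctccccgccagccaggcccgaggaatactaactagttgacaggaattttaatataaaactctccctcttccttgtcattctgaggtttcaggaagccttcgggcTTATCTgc
Tcf12, the E protein HEB, chr9:71896236-71896346, minus strand: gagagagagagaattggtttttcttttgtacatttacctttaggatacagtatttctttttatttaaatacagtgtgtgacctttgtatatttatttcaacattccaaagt
Runx1, at the start of the lncRNA gene Gm30281 inside it, chr16:92761959-92762092, plus strand: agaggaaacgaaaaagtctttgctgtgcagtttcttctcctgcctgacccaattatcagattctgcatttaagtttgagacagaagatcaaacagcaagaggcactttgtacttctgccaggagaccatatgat

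The printed stretches differed in base composition, and most held few of the searched letters. The Limk2 stretch was 65.6% G and C with 14 CpG pairs, and held CCGCCC, the KLF and SP letters read on the other strand, as well as CAGCTG and AACCACA, the RUNX letters on the other strand. The Slc25a25 stretch held TGACGTC, the CREB letters, on both strands in overlapping matches. The Jdp2 stretch held GGGCGG and the CTCF letters AGGGGGC, and those of Gpr174 and Rgs3 held the GATA letters on the other strand. The Tcf12 stretch was 27.9% G and C with 0 CpG pairs and held none of the marked motifs, and neither did those of Itgb7 and Gm30281. The member at Tcf12 was 201 kb from the nearest KO peak, whereas those at Itgb7 and Jdp2 had gaps of 662 and 541 bp. Over the 64 start windows of 300 bases that members met, median GC content was 58.0%, against 56.5% for the 64 windows met by low-ranked KO-only peaks inside genes, 59.0% for the 129 windows met by low-ranked shared peaks inside genes, and 52.7% over all 32851 windows. On either strand AGGGGGC was in 13 of the windows of members (20.3%, 11.3 to 32.2%), in 3 of those of KO-only peaks (4.69%, 0.977 to 13.1%), in 28 of those of shared peaks (21.7%, 14.9 to 29.8%) and in 10.6% of all windows. The windows of members came from 57 peaks, those of KO-only peaks from 57 and those of shared peaks from 119. Some peaks met several overlapping windows, as did the member in Ak4, with AGGGGGC in each. The intervals of motif shares treat such windows as separate, so they understate the counting error. TGACCA, a motif bound by the related factor BCL11A in human cells, was in 5 windows of members (7.81%, 2.59 to 17.3%), 11 of KO-only peaks (17.2%, 8.90 to 28.7%), 15 of shared peaks (11.6%, 6.66 to 18.5%) and 13.6% of all windows. CTTTGAA, the TCF and LEF letters, was in 0 of 64 windows of members (up to 5.60%), 0 of 64 of KO-only peaks, 5 of 129 of shared peaks (3.88%) and 5.14% of all windows. The letters GGAAGT of ETS factors stood in 12 windows of members (18.8%) and in 20 of KO-only peaks (31.3%), with intervals of 10.1 to 30.5% and 20.2 to 44.1% that overlap, and in 27.9% of those of shared peaks and 23.8% of all windows. Of the other motifs searched, the KLF and SP letters GGGCGG were in 48.4% of windows of members, 42.2% of those of KO-only peaks, 52.7% of those of shared peaks and 35.7% of all windows. The E-box CAGCTG was in 20.3% of windows of members, 20.3% for KO-only peaks, 21.7% for shared peaks and 16.3% of all windows. The NFAT letters TGGAAA were in 23.4% of windows of members, 15.6% for KO-only peaks, 14.7% for shared peaks and 21.4% of all windows. The short STAT pattern TTCNNNG was in 81.3% of windows of members (69.5 to 89.9%), 89.1% for KO-only peaks, 87.6% for shared peaks and 90.5% of all windows. The E-box CANNTG was in 73.4% of windows of members and 72.3% of all windows, and the IRF pattern GAAANNG in 46.9% of windows of members and 52.7% of all windows. These last 3 patterns are too frequent to be marked in capitals. Rarer were the RUNX letters TGTGGTT, in 4 windows of members, the AP-1 letters TGANTCA in 5, the GATA letters AGATAA in 5, the forkhead letters TGTTTAC in 4 and the CREB letters TGACGTC in 2 of them. Over all windows these rarer motifs were found in 5.27%, 7.81%, 11.2%, 3.65% and 3.21%, in that order. Since so few members meet a start, these shares describe members at annotated starts and not the class.

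Of the 8829 WT peaks that stood in the last 50% of the rows and inside genes, 44.7% were members (43.7 to 45.7%), 4377 overlapped a KO peak and 505 had a KO peak near them without meeting it. In the KO list the mirror class held 2445 of 7969 such peaks (30.7%). With peaks outside genes included, 42.1% of the last 50% of the WT rows had no KO peak within 500 bp, and 29.6% of the last 50% of the KO rows had no WT peak. The WT list is longer by 2076 rows, and 675 members stood in those last rows. With the WT list shortened to the length of the KO list, a setting chosen after seeing the data, 3272 members remained, 41.6% of 7857 peaks. Further up the WT list, 538 of 5853 peaks inside genes (9.19%) lacked a KO peak.

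**Figure D1:**
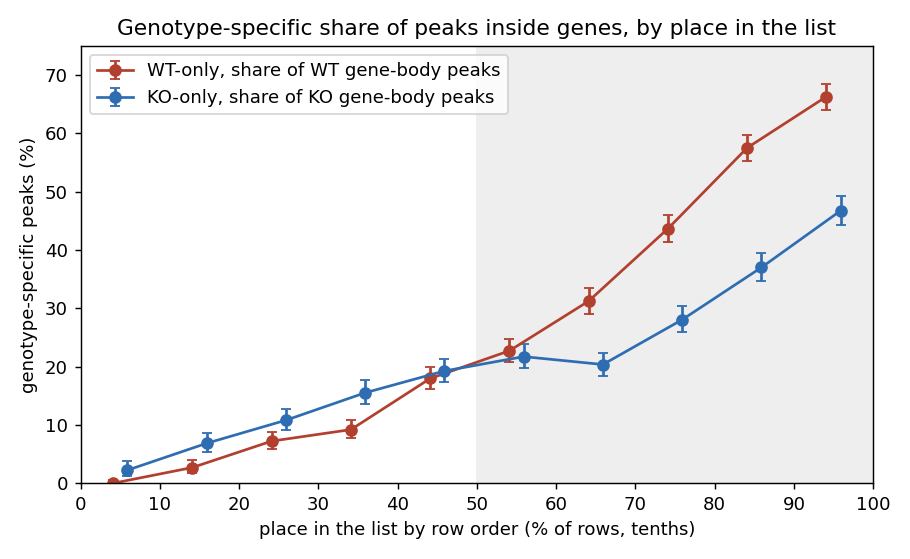
Share of peaks inside genes with no peak of the other list within 500 bp, by place in the list (row order, in steps of 10%), for the WT list (red) and the KO list (blue). Bars are exact 95% intervals for counting error, the grey area is the last 50% of the rows, and both shares are highest in the last 10%, at 66.3% for WT-only and 46.8% for KO-only peaks.

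The share of WT-only peaks was higher at each step down the WT list, from 22.7% of 1699 peaks inside genes between 50 and 60% of the rows to 66.3% of 1802 in the last 10%. In the KO list the same steps gave 21.7% and 46.8%. Since the absence of a KO peak is part of the rule, these shares describe where members stand and nothing more. Of all members, 1195 (30.3%) stood in the last 10% of the rows. At the rank limit the members nearest to it were in Cd9 (row 19171) and Anp32a (row 19187), and the WT-only peaks just above it in Ext1 (row 19095) and Ano6 (row 19102). At the gap limit, members in Tgfbr2 and Slc7a7 stood 501 and 502 bp from a KO peak, while peaks in Mgat4a and Tmem164 with gaps of 498 and 496 bp were left out. Members in Cyb5r2 and Slc6a19 had their midpoint 1003 bp from a gene end, and peaks in Tle5 and Gdf11 at 998 bp were left out.

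The gap to the nearest KO peak, which the rule used, had a median of 12.1 kb, against 10.1 kb from low-ranked KO-only peaks to the nearest WT peak. By size of gap, 167 members had a gap up to 1 kb, 633 one of 1 to 5 kb, 1807 one of 5 to 20 kb, 1138 one of 20 to 100 kb and 202 one over 100 kb. The nearest other WT peak was 10.1 kb from a member at the median (9.70 to 10.6 kb), against 9.75 kb (9.20 to 10.3 kb) to the nearest other KO peak for low-ranked KO-only peaks and 10.1 kb (9.78 to 10.5 kb) for low-ranked shared ones. A WT peak lay within 10 kb of 49.5% of members (47.9 to 51.0%) and of 49.3% of shared peaks. Within steps of rank the members had a WT peak near more often: between 50 and 60% of the rows 73.3% of members and 59.2% of shared peaks had a WT peak within 10 kb, and in the last 10% the shares were 37.8% and 33.6%.

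In 588 places at least 2 members followed each other with no KO peak between them, and these runs took in 1367 members (34.6%). In the mirror class, 282 runs with no WT peak between took in 622 of the 2445 KO-only peaks (25.4%). The rule itself keeps KO peaks away from members and the classes differ in number, so runs are given as positions alone. Runs of 4 or more numbered 33, against 7 in the mirror class. The longest, of 9 members over 361 kb, was in Hdac9. Runs of 5 were found in Xpo4, a nuclear export receptor gene, over 26.4 kb, in Uvrag, an autophagy gene, over 64.6 kb, and in Ntn4, a netrin gene, over 70.0 kb. One of 5 over 32.0 kb crossed Tmprss7 and BC016579. Shorter ones of 4 members lay within 7.07 kb in Cdk19, a kinase of the Mediator complex, and within 7.78 kb in Homer1, a scaffold gene. The genes of these runs were named after their values were seen.

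The members lay in 2665 protein-coding genes, 13.8% of the 19304 genes longer than 2 kb, and 36 members were in more than 1 such gene. Of the host genes 1884 held 1 member, 485 held 2, and 66 held 5 or more, a count of 41 with a gap limit of 5 kb and of 34 in the last 33.3% of the rows. Low-ranked KO-only peaks lay in 1880 genes (9.74%), of which 16 held 5 or more, and 694 genes held both classes. At least 3 more members than low-ranked KO-only peaks were found in 193 genes, and at least 3 more such KO-only peaks than members in 56. The classes differ in size, 3947 members and 2445 low-ranked KO-only peaks, and these counts were not adjusted for it. KO-only peaks counted per gene below are low-ranked ones unless stated otherwise. Gene ends were called in both genotypes for most hosts: 1656 of 2665 (62.1%) had a gene-end peak in both lists, 55 in the KO list alone, 104 in the WT list alone and 850 in neither. Over all genes longer than 2 kb, 52.3% had one in both lists. Among genes over 50 kb the share was 62.7% of the 1756 with a member and 45.6% of the 3189 without. No KO peak of any rank lay inside 505 host genes (18.9%), and in 477 (17.9%) the member was the sole WT peak inside the gene. Both shares were higher among host genes of low-ranked KO-only peaks. Of those, 417 (22.2%) held no WT peak, and in 425 (22.6%) the KO-only peak was the sole KO peak.

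**Figure D2:**
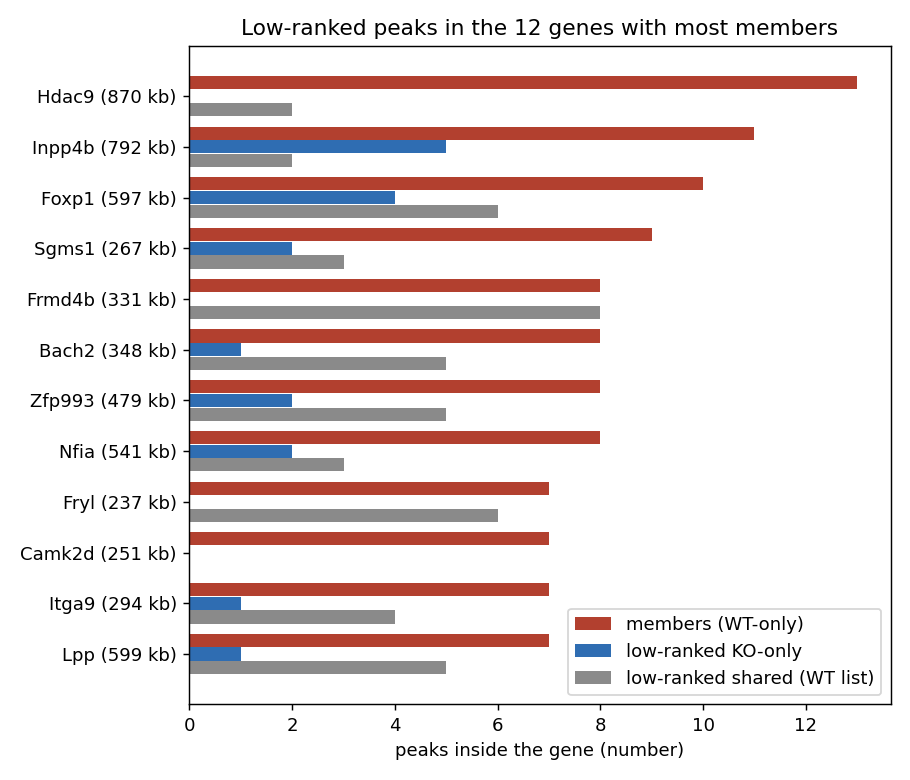
Number of low-ranked peaks inside the 12 genes with most members: members (red), low-ranked KO-only peaks (blue) and low-ranked shared peaks of the WT list (grey), with the length of each gene in kb. The genes were picked for their number of members, which ran from 13 in Hdac9 to 7 in Lpp, so that members lead in them by choice.

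Hdac9 held most members. It encodes a class IIa histone deacetylase, a corepressor of Mef2 factors that is also studied in Treg cells, and spans 34047580 to 34917095 on the minus strand of chromosome 12. It had 13 members, 0 low-ranked KO-only and 2 low-ranked shared peaks, and 3 KO and 18 WT peaks of any rank. The first members from its outer 5′ end were a pair at 34907210 to 34907428 and 34906649 to 34906867, and a second pair stood at 34872647 to 34872865 and 34871461 to 34871679. A group of 3 lay between 34489761 and 34503290, and the member of highest rank there, row 19707, stood at 34496058 to 34496276. All members of Hdac9 lay in the 484 kb from the outer 5′ end, and the median gap to a KO peak was 184 kb. No gene-end peak of Hdac9 was called in either list.

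Foxp1 and Bach2 encode transcription factors that keep T cells in a resting state, and together held 18 members. Foxp1, on the minus strand of chromosome 6 from 98925342 to 99522746, had 10 members, 4 low-ranked KO-only and 6 low-ranked shared peaks. The gap to a KO peak had a median of 5.82 kb and a range of 0.739 to 20.9 kb. Bach2, on the plus strand of chromosome 4 from 32238413 to 32586109, had 8 members, 1 KO-only and 5 shared low-ranked peaks. Of these, 3 lay in the 3′ part at 32463103 to 32463321, 32481551 to 32481769 and 32545054 to 32545272, where the second was 56.9 kb from the nearest KO peak. Both genes had gene-end peaks in both lists.

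**Figure D3:**
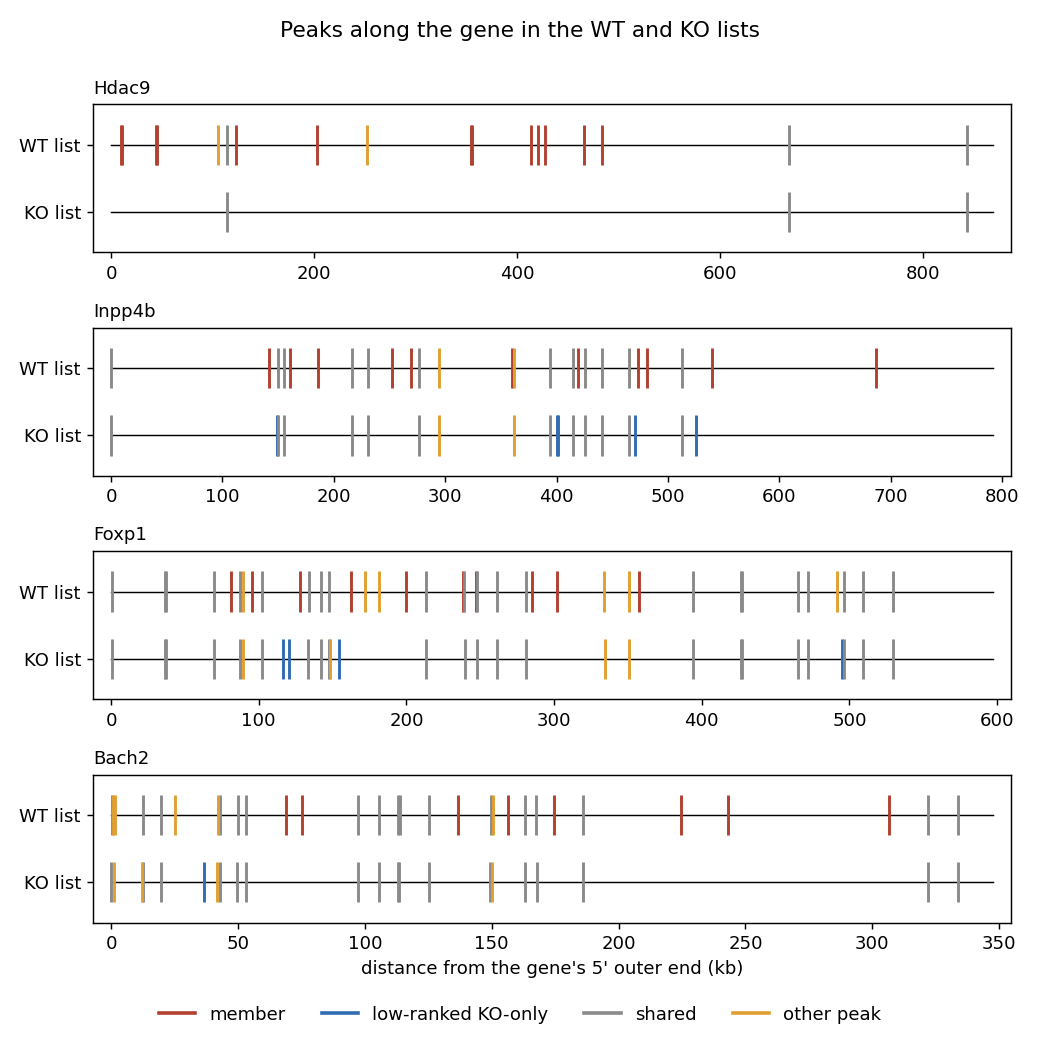
Positions of all peaks inside Hdac9, Inpp4b, Foxp1 and Bach2 in the WT list (upper line) and KO list (lower line), as distance in kb from the outer 5′ end of the gene. Members are red, low-ranked KO-only peaks blue, shared peaks grey and other peaks orange. The KO list has 3 peaks inside Hdac9, 19 inside Inpp4b, 30 inside Foxp1 and 22 inside Bach2.

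Inpp4b, a phosphatase of PI3K lipids on chromosome 8 (81342266 to 82134312), held 11 members and 5 low-ranked KO-only peaks, and its farthest member from a KO peak, at 82029053 to 82029271, had a gap of 162 kb. Sgms1, a sphingomyelin synthase gene, had 9 members and 2 KO-only peaks. Frmd4b, a scaffold gene, had 8 members, 0 KO-only and 8 shared low-ranked peaks, and 1 of its members, at 97487641 to 97487859 on chromosome 6, met an internal start. Nfia, a nuclear factor I gene, had 8 and 2. Fryl and Camk2d, a subunit of the calcium and calmodulin kinase II, each had 7 members and 0 low-ranked KO-only peaks. All 7 low-ranked WT peaks inside Camk2d were members, and higher up the lists Camk2d had 0 WT-only and 2 KO-only peaks. Itga9, an integrin chain, and Lpp, an adhesion protein gene, each had 7 members and 1 KO-only peak. Zfp993 had 8 members and 2 KO-only peaks. It belongs to a zinc-finger family with near-identical copies and its gene model spans 479 kb, so its peak calls are uncertain.

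Among genes with at least 3 members, the most per 100 kb were found in genes of 17.7 to 63.1 kb, and counts this small carry a wide counting error. BC053393 on chromosome 11 held 3 members in 17.7 kb of gene, all within the 1.26 kb between 46578729 and 46579990, and the nearest KO peak was 86.3 kb away. Pip5k1c, which makes the lipid PIP2, Stard10, a lipid transfer gene, and Dnajc7, a chaperone gene, held 3 each, with 0 low-ranked KO-only peaks. Colq, which anchors acetylcholinesterase at muscle synapses, held 5 in 54.8 kb, and Pak2, a kinase downstream of Rac, held 4 in 63.1 kb. Stard10, Bend4 and BC053393 had 0 KO peaks inside the gene. Slc41a3, a magnesium transporter family gene, had 3 members beside 2 KO-only peaks, Usp10, a deubiquitinase gene, 3 beside 1, and Tmprss7, a serine protease gene, 3 beside 0.

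Members lay in longer genes than both other classes of low-ranked peaks. The median host gene was 104 kb long (99.6 to 108 kb) for members, against 93.7 kb (89.4 to 99.0 kb) for low-ranked KO-only peaks and 85.6 kb (81.9 to 88.9 kb) for low-ranked shared peaks, and 51.3% of members (49.8 to 52.9%) were in genes over 100 kb, against 47.6% of KO-only peaks (45.6 to 49.6%) and 44.6% of shared peaks (43.1 to 46.0%). At equal rank the order against shared peaks held in each of the 5 steps of 10%, from 92.8 kb for members against 83.6 kb for shared peaks between 50 and 60% of the rows to 101 kb against 75.2 kb in the last 10%. The intervals of the medians did not overlap between 60 and 70% of the rows and in the last 10%, and overlapped in the other steps. Per length of gene, members were most frequent in genes of 50 to 100 kb, at 5.29 per Mb, and fell to 1.49 per Mb in genes over 500 kb. The other classes fell too, from 3.19 per Mb in genes of 20 to 50 kb to 0.752 for KO-only peaks. For shared peaks the same bins gave 6.00 and 1.10 per Mb. As a share of low-ranked WT peaks inside genes, members made up 38.4% in genes of 2 to 20 kb and 55.0% in genes over 500 kb. Where the strand was known, 18.7% of 3195 members (17.4 to 20.1%) lay in the first 20% of the gene and 18.5% (17.1 to 19.9%) in the last 20%. For KO-only peaks these shares were 17.9% and 18.5%, and for shared peaks 15.9% and 21.4%.

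**Figure D4:**
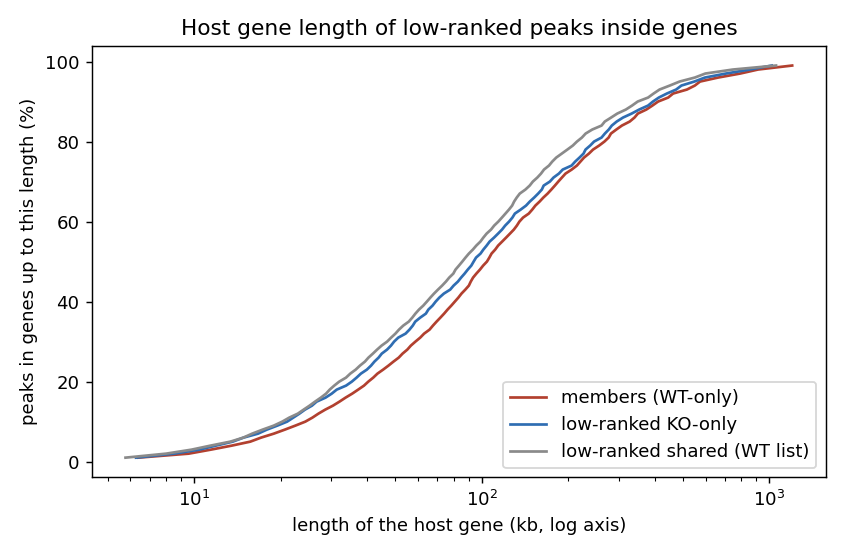
Cumulative share of low-ranked peaks inside genes by length of the host gene (kb, log axis), for members (red), KO-only peaks (blue) and shared peaks (grey). The curve of members lies to the right through the middle, with medians of 104, 93.7 and 85.6 kb.

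Annotated starts were less frequent at members than at the other classes. Within 1 kb of a RefSeq start of any gene type lay 3.87% of members (3.28 to 4.53%), 5.54% of low-ranked KO-only peaks (4.65 to 6.53%) and 5.72% of low-ranked shared peaks (5.04 to 6.46%). The share of members with their midpoint in a lncRNA gene was 5.73%, against 5.44% of KO-only and 5.57% of shared peaks, a difference within the counting error.

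The X chromosome held 141 members, 28 low-ranked KO-only and 64 low-ranked shared peaks, and 64.4% of its low-ranked WT peaks inside genes were members (57.7 to 70.7%), against 44.2% on the autosomes (43.2 to 45.3%). Per Mb of protein-coding gene the X chromosome had 3.09 members, near the 3.87 of the autosomes, but 0.613 low-ranked KO-only peaks against 2.46 and 1.40 shared peaks against 4.38. Of all members 3.57% were on the X chromosome (3.02 to 4.20%), against 1.15% of KO-only and 1.46% of shared peaks. Within steps of rank it held 2.21 to 5.02% of members and 1.13 to 1.88% of shared peaks. Members on X were spread over genes such as Sh3kbp1, an adaptor of the ubiquitin ligase Cbl, with 6 members and 1 KO-only peak, Diaph2, a formin gene, with 5 and 0, and Tbl1x, a subunit of corepressor complexes, with 4 and 0, all named after their values were seen. Dock11, an activator of Cdc42, had 4 and 1. Hprt, a purine salvage gene, had 2 and 0. The sex of the mice is not given in the labels, and its part in these values cannot be told apart from genotype. Among autosomes the share of members ran from 37.9% on chromosome 19 to 53.7% on chromosome 12, where Hdac9 held 13 of the 202 members.

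Members were next counted in 20 lists of 423 genes that bear on T cells or serve as controls. The lists were chosen with results of these data known and are read against 44.7% over all genes, and 13.8% of genes with a member. In all, 154 of the 423 genes held 327 members. The genes named per list are those with most members, so they do not show how often KO-only peaks were more numerous in a gene, and some that go the other way were added after their values were seen. Long genes offer more room for peaks, so counts of genes with a member also follow length. KO-only counts per gene are of low-ranked peaks, so a gene, also one with 0, may hold further KO-only peaks of higher rank. Adcy7 had 2 of these, and Itga6, Smad2 and Tnik 1 each, beside 1, 1, 0 and 0 WT-only peaks of higher rank, in that order.

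**Figure D5:**
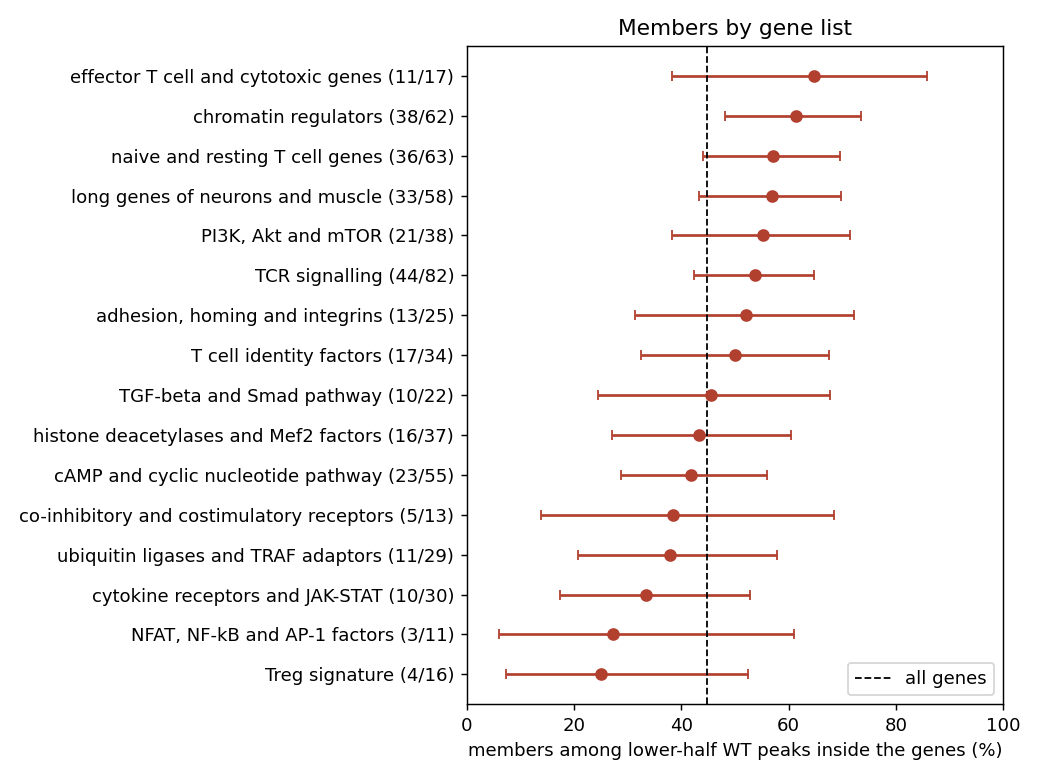
Share of members among the low-ranked WT peaks inside the genes of each list, in percent, with exact 95% intervals for counting error. Numbers in brackets are members and such peaks, lists with under 10 such peaks and 1 other list are not drawn, and the dashed line is the 44.7% of all genes. The interval of the chromatin regulators is the one drawn that excludes the line.

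Genes of naive and resting T cells held 36 members, 14 low-ranked KO-only and 23 shared peaks, with a median of 1 member per gene against 0 over all genes. Members were 57.1% of the low-ranked WT peaks inside these genes (44.0 to 69.5%), an interval that includes the 44.7% of all genes, and 9 of 16 genes held one. Besides Foxp1 and Bach2, Igf1r, a growth factor receptor gene, had 6 members and 1 KO-only peak, and Bcl2, a survival gene, had 5 and 0. Lef1 held 1 member and 1 KO-only peak, and Il6ra, the IL-6 receptor, 2 of each.

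Genes of T cell receptor signalling held 44 members against 11 low-ranked KO-only and 33 shared peaks, in 22 of 35 genes. Members outnumbered low-ranked KO-only peaks at 18 genes and were fewer at 2. Over all genes 2665 held a member and 1880 a low-ranked KO-only peak, and the counts of 18 and 2 were not adjusted for this. The share of members in this list was 53.7% (42.3 to 64.7%), which includes the value of all genes. Themis, a regulator of T cell selection that acts with the phosphatase Shp1, had 6 members and 0 KO-only peaks between 28684903 and 28854880 on chromosome 10, the farthest 67.4 kb from a KO peak. Ubash3b, a phosphatase that damps receptor signalling, had 5 and 0. The Src-family kinase gene Fyn and Prkch, a protein kinase C gene, each had 4 members and 0 low-ranked KO-only peaks. Higher up the lists Fyn had 0 WT-only and 2 KO-only peaks, and Prkch had 5 and 4. Plcg1, Vav1, Rasgrp1 and the receptor chain gene Cd247 each had 1 member and 0 KO-only peaks. T cell identity factors held 17 members and 6 KO-only peaks, and members were 17 of 34 low-ranked WT peaks (32.4 to 67.6%). Runx1 had 3 members and 2 low-ranked KO-only peaks, Tcf12 3 and 1, and Ikzf3, encoding Aiolos, 2 and 1. Higher up the lists Ikzf3 had 0 WT-only and 2 KO-only peaks, and Runx1 and Tcf12 had 0 of either. Without Themis the share in that list was 40.7%.

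In 27 signature genes of Treg cells, whose median length is 18.1 kb, there were 4 members, 5 low-ranked KO-only and 10 shared peaks, and members were 4 of 16 low-ranked WT peaks (7.27 to 52.4%). Swap70, a Rac-signalling protein gene, held 2 members, and the ectonucleotidase genes Nt5e and Entpd1 held 1 each. Bcl11b, Foxp3, Il2ra, Ctla4, Ikzf2 and Il10 held 0. Bcl11b had 1 low-ranked KO-only peak in its body, as had Il2ra, and Ikzf2 had 2. Higher up the lists Bcl11b had 2 WT-only and 0 KO-only peaks, Il2ra 2 and 1, and Ikzf2 0 and 2. The interval of the list includes the 44.7% of all genes, and the 3 genes with a member are 11.1% of the list, near the 13.8% of all genes.

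Chromatin regulators held 38 members, 15 low-ranked KO-only and 21 shared peaks, in 20 of 36 genes, and their share of 61.3% (48.1 to 73.4%) was above the 44.7% of all genes. The median was 1 member per gene, against 0 over all genes, and the median gene of the list was 91.5 kb long, against 21.3 kb. Without Arid5b, a DNA-binding partner of a histone demethylase, which had 4 members and 0 KO-only peaks, the share was 63.0% (48.7 to 75.7%). Jarid2, a subunit of Polycomb complexes, had 4 and 1, the DNA methyltransferase gene Dnmt3a 3 and 2, and the BAF subunit gene Arid1b 4 of each. The demethylases of DNA Tet1, Tet2 and Tet3 had 1, 2 and 1 members and 0 KO-only peaks. With 20 lists read side by side, 1 interval clear of the overall value is no more than a description.

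In histone deacetylases and Mef2 factors the count rested on 1 gene. The list held 16 members and 11 low-ranked KO-only peaks, of which Hdac9 had 13 and 0. Without Hdac9 the share of members was 13.6% (2.91 to 34.9%), below the 43.2% with it and below the value of all genes. Hdac8 and Mef2b had 1 member and 0 KO-only peaks, and Mef2c had 1 of each. Hdac4, another class IIa deacetylase gene, had 0 and 5. PI3K, Akt and mTOR genes held 21 members and 20 KO-only peaks, 11 of the members in Inpp4b, and 41.7% were members without it. Pik3ap1, an adaptor of PI3K, had 3 and 2, and the kinase gene Tnik had 2 and 0. As many genes of the list, 7, had more KO-only peaks as had more members, among them Rptor, an mTOR partner gene, with 0 and 3 and Pik3cg, Pik3r1, Pik3r5 and Foxo1 with 0 and 2 each.

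The next lists, of signalling and adhesion genes, had wide intervals that include the 44.7% of all genes. These were 28.7 to 55.9% for the cAMP pathway, 24.4 to 67.8% for TGF-beta genes and 20.7 to 57.7% for ubiquitin ligases and TRAF adaptors. Genes of the cAMP pathway held 23 members and 18 low-ranked KO-only peaks (41.8% of low-ranked WT peaks), with 6 and 3 at the anchoring protein gene Akap13 and 3 and 4 at the phosphodiesterase gene Pde4d. Prkar2b, a regulatory subunit of protein kinase A, had 2 and 1, and the adenylyl cyclase gene Adcy7 2 and 0. Adhesion, homing and integrin genes held 13 and 2 (52.0%, 31.3 to 72.2%), in 10 of 26 genes, with 2 and 0 at each of Itga6, Itgav and Cd44 and 1 and 0 at the chemokine receptor gene Cxcr5. TGF-beta genes held 10 and 5 (45.5%), with 4 and 2 at the coreceptor gene Tgfbr3, 2 and 0 at Smad2, 2 and 1 at Smurf1 and 1 and 0 at Tgfbr2. Ubiquitin ligases and TRAF adaptors held 11 and 9 (37.9%), with 2 and 1 at Fbxw7 and at Nedd4l and 1 and 0 at Traf1 and at Traf6.

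Cytokine receptor and JAK-STAT genes held 10 members and 7 low-ranked KO-only peaks (33.3%), with 2 and 0 at Stat3, 2 and 1 at Stat4, and 1 and 0 at Stat5a and at Il21r. NFAT, NF-kB and AP-1 factors held 3 and 6 (27.3%), with 2 and 1 at Nfatc1 and 1 and 2 at Nfkb1. Among peaks of higher rank the order was reversed, with 0 WT-only and 3 KO-only peaks at Nfatc1 and 3 and 1 at Nfkb1. Co-inhibitory and costimulatory receptor genes held 5 and 6 (38.5%), with 2 and 2 at Cd244a, 1 and 1 at Cd40lg, and 1 and 0 at Cd96 and at Cd200. Effector and cytotoxic genes held 11 and 9, and members were 64.7% of 17 low-ranked WT peaks (38.3 to 85.8%), an interval that includes the value of all genes. Members lay in 4 of 29 genes (13.8%, the same as over all genes), and 4 genes had more members and 4 more KO-only peaks. Rora, a nuclear receptor gene of innate and Th17 cells, had 5 and 2, and Zeb2, a transcription factor of terminal effector cells, 2 and 1. Tbx21, encoding T-bet, had 0 and 3, and Ccl4, Klrk1 and Klrd1 had 0 and 1 each. Ifng, the interferon gamma gene, had 2 and 0 at 118442071 to 118442289 and 118443080 to 118443298 on chromosome 10, 16.5 and 15.5 kb from the nearest KO peak, and these were the sole WT peaks in the gene.

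Control lists also held members. Long genes of neurons and muscle held 33 members, 11 low-ranked KO-only and 24 shared peaks, in 16 of 26 genes, and their share of members was 56.9% (43.2 to 69.8%), beside 57.1% in the naive and resting T cell genes. Per Mb of gene these lists differ widely, at 0.839 members for the neuron and muscle genes and 18.8 for the naive and resting T cell genes. The scaffold gene Magi2 had 5 members and 0 KO-only peaks, the receptor gene Erbb4 3 and 0, and Sox5 2 and 1. B cell genes held 4 members and 5 KO-only peaks, with 2 and 0 at Bank1 and 1 and 0 at Btk and at Ebf1, and with 0 and 3 at Blk and 0 and 2 at Pax5. Myeloid genes held 0 members of 2 low-ranked WT peaks and 2 KO-only peaks. Housekeeping genes held 3 members and 0 KO-only peaks, 2 in Hprt and 1 in Pgk1, both on the X chromosome.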

How the data were processed

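ATAC-seq had been done on 6 samples in 2 groups of 3. The submitters' processing notes name deepTools, HOMER 4.10.1, SAMtools 1.3, HISAT2 2.1.0, Trim Galore 0.4.2 with cutadapt 1.12, and FastQC, and build mm10. What each did, the peak threshold, the transposase shift and the joining of replicates are not stated there. The authors deposited 1 peak list per group, with start, end and a score of 1 in every row, which holds no peak height. Most peaks are 193 bp (KO) or 219 bp (WT) wide.

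Gaps, gene hosts and shares were computed in Python 3.11.15 (scipy 1.17.1 for intervals, pandas 2.3.3 and numpy 2.4.6 for tables). Figures were drawn by matplotlib 3.10.9. On 800 simulated peaks, gaps and gene hosts gave 0 differences from bedtools 2.31.1. Distances to gene ends gave 0 differences from a direct search over all gene ends, and the other steps were not checked in this way. A gap counts the bases between peaks. Genes and starts came from RefSeq (GRCm38.p6), which matched all 423 listed genes. A peak in several genes counts for each, and its host length is that of the shortest. Exons were not used, and starts on chromosome 18 were not used here. The planned sequence content of all members was limited to start windows.

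The members and lists were chosen with earlier results of these data known. Genes named are 6 fixed ones, the 12 with most members, the 10 with most per 100 kb among those with at least 3, and up to 4 per list. Others, including Plcg1, Vav1, Cd247, Rasgrp1, Lef1, Il6ra, Tet1, Tet2, Tet3, those with more KO-only peaks than members and the genes of runs, starts and limits, were chosen after their values were seen. Shares carry Clopper-Pearson intervals and medians order-statistic intervals. No test was made, since neither list has values per sample. Results of 1 list and of some genes that the rule names are not reported here.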

Additional observations from a re-analysis of the deposited data

How the results depend on the processing

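The 3947 members and 2665 host genes stayed within 1.5 times of these counts under each alternative run. The share of low-ranked WT peaks inside genes that are members, 44.7%, was 50.4% when any peak that overlaps no KO peak counted, 42.8% with a 1 kb gap, 35.6% with a 5 kb gap, 53.9% in the last 33.3% of the rows and 41.6% when WT rows beyond the KO length were dropped. Genes with 5 or more members, 66, numbered 41 with the 5 kb gap and 34 in the last 33.3% of the rows. The median host length of 104 kb was 111 kb with the 5 kb gap and 108 kb with a gene-end margin of 2 kb, and the share in genes over 100 kb, 51.3%, was then 54.0% and 53.3%. The share with another WT peak within 10 kb, 49.5%, was 47.4% with the 1 kb gap, 39.2% with the 5 kb gap, 44.7% in the last 33.3% of the rows and 52.2% with the shortened WT list. A wider gap removes members near KO peaks by construction, and a stricter rank limit leaves fewer peaks. For the other changes the cause was not tested. The shortened list and the lists without their leading gene were chosen after seeing the data. No paired analysis was possible because each group has 1 list for its 3 samples, and for the same reason no replicate could be left out. The central 100 bp of members was not run, since sequence was used at start windows alone. Without counts the depth behind a missing KO peak is unknown.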
